A study of Larimichthys polyactis and Larimichthys crocea with 36 samples.

Results

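Muscle of the hybrids LPC and LCP, the crosses in both directions between large yellow croaker (Larimichthys crocea, LC) and small yellow croaker (Larimichthys polyactis, LP), was compared by RNA sequencing with 3 libraries of LPC and 3 of LCP. These were 6 of the 36 libraries of a study of brain, liver and muscle in both species and both hybrids. Values are FPKM, that is fragments scaled to the length of the transcript and to the library's total, as the authors deposited them. An identifier (ID) was included when its FPKM was at least 1 in at least 3 of the 6 libraries, which held for 9825 of the 24212 IDs in the table. The labels name the cross and the tissue only. They do not say which species was the mother of LPC or of LCP, give no age, sex or treatment, and do not state whether the 3 libraries of a cross came from separate fish. All p-values below are therefore set against the variation among libraries, and that variation may be technical. The IDs are not paired with gene names in the files, so levels and differences are given by ID and no gene function is assigned.

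Fish from the 2 directions of a cross between species carry the same pair of nuclear genomes. They differ in which species provided the egg, and with it the cytoplasm, the maternal RNA of the early embryo and the mitochondria. Fish trunk muscle consists mostly of fast fibres, and a small number of transcripts for contractile and energy-supplying proteins make up much of its messenger RNA. FPKM is relative to the total of a library, so the level of these few transcripts affects the scale on which every other transcript is read.

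The libraries of LPC were more alike than those of LCP. Spearman correlations over the 9825 IDs were 0.925 to 0.975 within LPC, 0.880 to 0.919 within LCP and 0.856 to 0.895 between the hybrids. The highest value belonged to LPC replicates 2 and 3, and LCP replicate 2 had the lowest correlations with the LPC libraries. The median standard deviation of an ID within a hybrid was 0.19 in LPC and 0.34 in LCP on the log2(FPKM + 1) scale. On the first principal component, which held 50.3% of the variance, LPC libraries lay at 19.8, 41.1 and 37.9 and LCP libraries at -34.1, -51.2 and -13.5. The hybrids did not overlap on it.

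The 10 most abundant IDs took up a smaller part of the FPKM sum in the LPC libraries than in the LCP libraries. These 10 leading IDs, ranked within each library, held 34.0%, 30.9% and 32.0% in LPC, against 43.5%, 36.0% and 35.9% in LCP. The ranges did not overlap, with means of 32.3% ± 1.57 for LPC and 38.5% ± 4.36 for LCP (± SD over 3 libraries), and the exact 2-sided permutation test gave p = 0.1, the smallest that 3 against 3 libraries allow. Without LCP replicate 1 the difference of LPC minus LCP was -3.67 percentage points in place of -6.19. The 100 leading IDs held 63.3% to 67.3% in LPC and 65.7% to 72.1% in LCP, which overlap (exact permutation p = 0.2). IDs listed with 1 FPKM or more numbered 9751, 10219 and 10145 in LPC and 8361, 8557 and 9394 in LCP. Every LPC library was above every LCP library, by 1268 IDs on average (exact permutation p = 0.1). With 5 FPKM or more the ranges overlapped, at 4755 to 5289 IDs in LPC and 3856 to 4764 in LCP (exact permutation p = 0.2). After median-ratio scaling the mean difference was 348 IDs. That scaling divides each library by the median, over IDs, of its ratio to the mean library. Its factors were 1.06, 1.27 and 1.22 in LPC, against 0.796, 0.758 and 1.06 in LCP, with LPC replicate 1 and LCP replicate 3 nearly equal and the other LPC libraries above the other LCP libraries. In bulk tissue such as this, fewer cells of a type and less RNA per cell cannot be told apart.

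**Figure D1:**
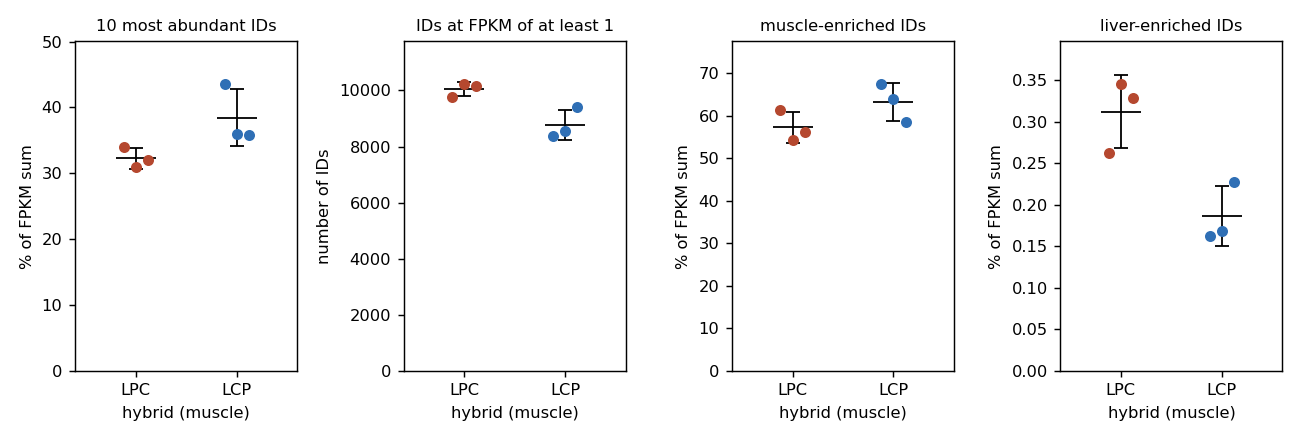
Shares of the FPKM sum (%) and numbers of IDs in the muscle libraries of LPC (left in each panel) and LCP (right). Points are the 3 libraries of a hybrid, and bars give the mean and SD. LPC libraries held 30.9% to 34.0% of FPKM in their 10 leading IDs, against 35.9% to 43.5% in LCP, and muscle-enriched IDs took 54.3% to 61.4% in LPC and 58.6% to 67.4% in LCP.

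On the deposited scale, muscle transcripts that differed between the hybrids were mostly higher in LPC. Limma on log2(FPKM + 1) with Benjamini-Hochberg adjustment at 0.05 called 366 IDs higher in LPC (3.73% of those tested) and 33 lower (0.336%). The median of all 9825 differences was 0.34 on the log2 scale, so an ID at the median was itself higher in LPC. After median-ratio scaling the median was 0.01, and 127 IDs were called higher in LPC (1.29%) and 121 lower (1.23%). All 127 IDs called higher after scaling were also called higher as deposited, and 33 of the 121 called lower were also called lower as deposited. These 160 IDs, 127 higher (1.29%) and 33 lower (0.336%) in LPC under both scalings, passed the test on the deposited scale and on the scaled one, and no ID was called in opposite directions. Of the 160, 98 higher and 30 lower IDs differed by at least 2-fold on both scales. The log2(FPKM + 1) scale understates differences of low values. The filter was set on deposited FPKM and can be met by the 3 libraries of 1 hybrid alone. Since LPC listed more IDs at 1 FPKM or more, it can favour IDs that are high in LPC. Its part in these splits was not tested.

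**Figure D2:**
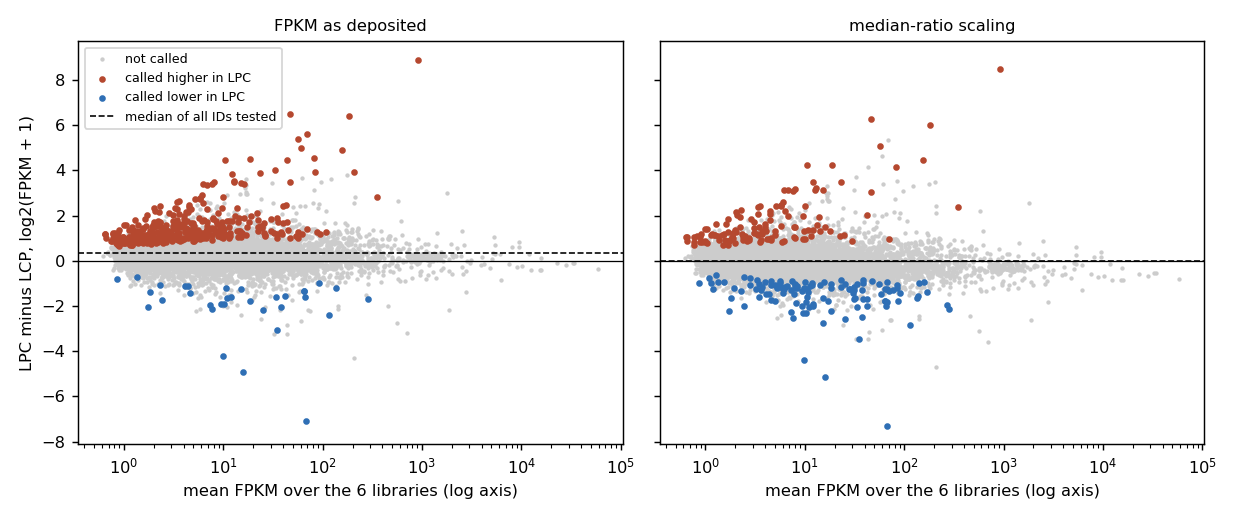
Difference of LPC minus LCP in muscle, on the log2(FPKM + 1) scale, against mean FPKM over the 6 libraries (log axis), as deposited (left) and after median-ratio scaling (right). Each point is 1 of 9825 IDs. The dashed line is the median of all IDs, 0.34 as deposited and 0.01 after scaling, and called IDs above 0 outnumber those below 0 as deposited (366 and 33) and not after scaling (127 and 121).

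The number of calls depended on single libraries. As deposited it was 61 without LPC replicate 3, 65 without LPC replicate 2, 245 without LPC replicate 1, 144 without LCP replicate 1, 279 without LCP replicate 2 and 1397 without LCP replicate 3, against 399 with all 6. After scaling it was 26 without LPC replicate 3 and 309 without LCP replicate 2, against 248. Of the 9825 IDs tested, 51 were called in every one of these reduced sets as deposited, 46 higher and 5 lower in LPC. After scaling 21 were, 14 higher and 7 lower. The 2 sets shared 19 IDs, of which 14 were higher and 5 lower in LPC. Names beginning with BGI_novel belonged to 13 of the 19, against 673 of the 9825 IDs tested. The 6 BGI_novel IDs described one by one below are among the 19. 

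The highest differences in favour of LPC were found for BGI_novel_G002561 and BGI_novel_G002121. BGI_novel_G002561 had 397, 3035 and 2061 FPKM in LPC muscle and 2.16, 2.91 and 0.84 FPKM in LCP muscle. Every LPC library was far above every LCP library, and the log2 difference was 8.90 ± 0.71 (SE, limma adjusted p = 0.00138). It was also abundant in LC muscle (497, 3861 and 9493 FPKM) and at or near 0 in LP muscle (0, 0 and 0.16 FPKM). LPC muscle overlapped LC muscle for this ID, and LCP muscle was low but above LP in each library. In liver it did not exceed 0.09 FPKM in LPC and 0.13 FPKM in LCP, and in brain a single LPC library (replicate 2) reached 42.8 FPKM. The 3 most abundant IDs of hybrid muscle, described below, were also highest in that brain library among those of LPC. They had 164, 235 and 128 FPKM there, against at most 45.0 FPKM in the other LPC brain libraries. The reason was not tested.

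BGI_novel_G002121 had 65.8, 114 and 99.0 FPKM in LPC muscle and was listed at 0 in all 3 LCP libraries (log2 difference 6.52 ± 0.25, limma adjusted p = 3.08e-05). In the parents it was uneven: LP muscle had 5.32, 0 and 14.6 FPKM, and LC muscle had 0, 0 and 54.8 FPKM. As deposited, all LPC libraries were above every parental library, the closest being 65.8 FPKM in LPC and 54.8 FPKM in LC. Whether this order holds after scaling was not tested. In liver and brain it was listed at 0 in every LCP library, while LPC had 0, 6.18 and 9.29 FPKM in liver and 0, 8.07 and 10.4 FPKM in brain.

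BGI_novel_G002127 and BGI_novel_G001692 stood at the other end. BGI_novel_G002127 was listed at 0 in all 3 LPC muscle libraries and had 146, 134 and 127 FPKM in LCP muscle (log2 difference -7.09 ± 0.20, limma adjusted p = 4.42e-06). It was listed at 0 in all 9 libraries of LPC and all 9 of LP, over muscle, liver and brain. It was above 0 in all 9 libraries of LCP, with 13.4, 13.0 and 15.5 FPKM in liver and 4.91, 18.6 and 11.8 FPKM in brain. LC muscle had 328, 426 and 82.1 FPKM, LC liver 68.2, 37.1 and 10.2 FPKM, and LC brain 9.28, 23.4 and 5.14 FPKM. For this ID LPC was listed as LP was, and LCP was present as LC was, in each of the 3 tissues.

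BGI_novel_G001692 was likewise listed at 0 in all 3 LPC muscle libraries, against 16.0, 34.1 and 45.2 FPKM in LCP muscle (log2 difference -4.92 ± 0.36, limma adjusted p = 8.43e-04). LP muscle did not exceed 0.59 FPKM, and LC muscle had 0, 7.03 and 6.68 FPKM. It was present in LPC outside muscle, since LPC liver had 7.22, 5.09 and 59.4 FPKM, overlapping 22.8, 29.6 and 34.3 FPKM in LCP liver.

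**Figure D3:**
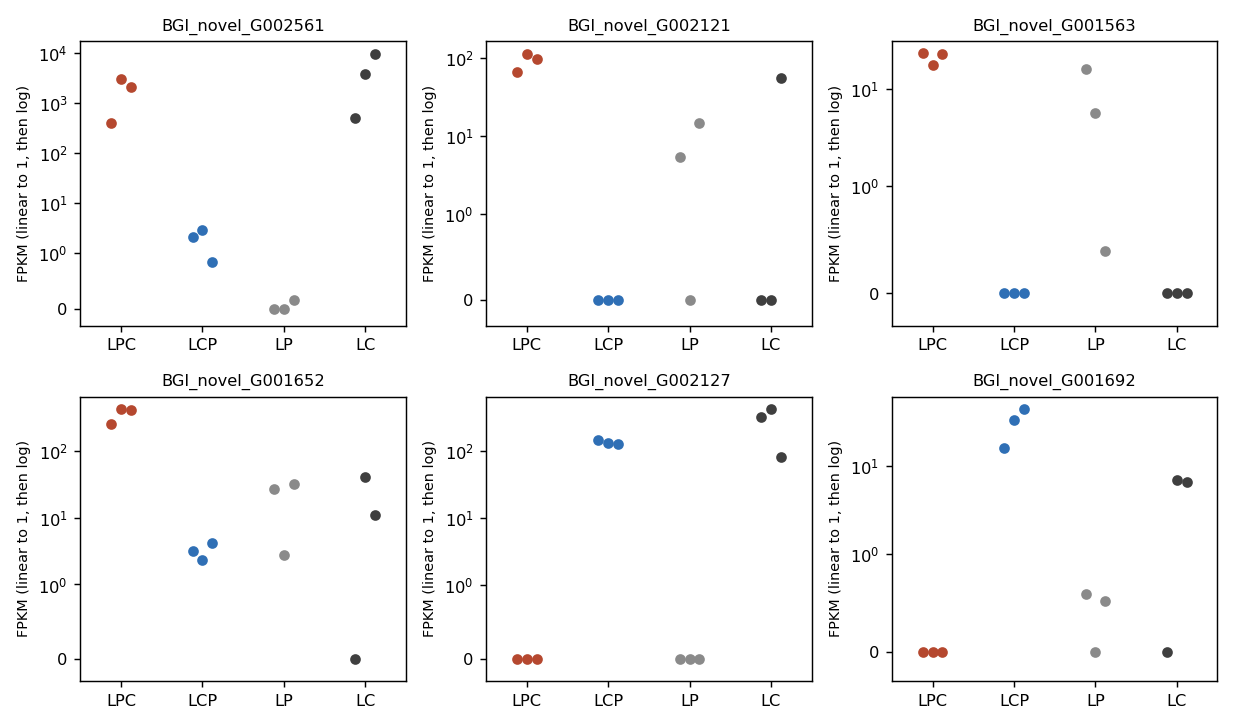
FPKM of 6 IDs in each muscle library of LPC, LCP, LP and LC, from left to right in each panel (axis linear up to 1, logarithmic above). The upper row and the first panel of the lower row show IDs higher in LPC than in LCP, and the last panels of the lower row show BGI_novel_G002127 and BGI_novel_G001692, listed at 0 in all 3 LPC libraries.

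An ID on in all libraries of one hybrid and off in the other was rare. With an FPKM of at least 1 in all 3 libraries of one hybrid and 0 in all 3 of the other, 10 IDs were listed in LPC only (0.102% of those tested) and 4 in LCP only (0.0407%). Of these, 8 of the 10 and all 4 were BGI_novel IDs, against 673 of the 9825 IDs tested. By the rule used, each of the 14 passed the filter only through the hybrid that listed it. The set was chosen for its difference, so its share of BGI_novel IDs is a description only. The mean FPKM in the hybrid that listed them had a median of 2.995 and a maximum of 93.0 over the 10, and a median of 25.8 and a maximum of 135 over the 4. In parental muscle, 4 of the 10 were above 0 in some LP library and in no LC library, 1 in LC only, 4 in both species and 1 in neither. Of the 4 listed in LCP only, 1 was above 0 in LC only and 3 in both species. The same on and off pattern held in liver and in brain for 2 of the 10 and 1 of the 4, and the opposite pattern for none of the 14. With FPKM at 0 a low level cannot be told from absence, since the depth of the libraries is unknown.

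The 3 most abundant transcripts of hybrid muscle were evm.model.Chr1.830, evm.model.Chr21.1163 and evm.model.Chr21.197, and none was called. evm.model.Chr1.830 had 55003, 44610.4 and 54038 FPKM in LPC, against 79318, 60538 and 59623 FPKM in LCP. The ranges did not overlap, but the difference of -0.37 ± 0.18 did not pass (limma adjusted p = 0.208). evm.model.Chr21.197 had 30813, 32451 and 31988.5 FPKM in LPC and 33904, 34565 and 33491 FPKM in LCP. Again there was no overlap, and the difference was small as deposited (-0.10 ± 0.15, limma adjusted p = 0.665). evm.model.Chr21.1163 had 32301, 29807 and 34309.6 FPKM in LPC and 40824, 19979.9 and 48134.5 FPKM in LCP, where LCP replicate 2 was the lowest and LCP replicate 3 the highest of the 6 (-0.08 ± 0.32, adjusted p = 0.871). After median-ratio scaling the differences were larger, at -0.82 ± 0.32 for evm.model.Chr1.830 (limma adjusted p = 0.193) and -0.55 ± 0.26 for evm.model.Chr21.197 (adjusted p = 0.263). For evm.model.Chr21.1163 the scaled difference was -0.53 ± 0.33 (limma adjusted p = 0.368). All 3 IDs are muscle-enriched, as defined below.

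Tissue-enriched IDs were defined from the 18 parental libraries only, as a mean FPKM of at least 10 in a tissue and at least 4 times that of each other tissue, in LP and in LC. This gave 345 muscle-enriched IDs, which held 54.3% to 67.4% of the FPKM sum in the 6 hybrid muscle libraries, at most 0.0688% in hybrid liver and at most 0.625% in hybrid brain, so the libraries carry the tissue they are labelled with. The muscle-enriched share was 61.4%, 54.3% and 56.3% in LPC and 67.4%, 64.0% and 58.6% in LCP. The ranges overlapped (exact permutation p = 0.2, 0.267 adjusted over 4 lists). As single IDs, 3 of the 345 were called higher and 1 lower in LPC as deposited, and 0 higher and 5 lower after scaling, that is 1.16% against 4.06% of all IDs and 1.45% against 2.52%. Their median difference was -0.08 as deposited, against 0.34 over all IDs, and -0.51 after scaling, against 0.01. It was below 0 and below the median of all IDs under each of 5 scalings, by 0.23 to 0.52 on the log2 scale, and by 0.30 to 0.53 with any 1 library left out. The list requires a mean of at least 10 FPKM in parental muscle, and no comparison with other IDs of like abundance was made.

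IDs enriched in liver or brain took small shares of muscle RNA in both hybrids. The 609 liver-enriched IDs, of which 172 passed the filter, held 0.263%, 0.345% and 0.329% of muscle FPKM in LPC, against 0.163%, 0.169% and 0.228% in LCP. The ranges did not overlap (exact permutation p = 0.1, adjusted 0.267). Of the 172, 20 were called higher and 2 lower as deposited, and 11 higher and 4 lower after scaling, that is 12.8% against 4.06% of all IDs and 8.72% against 2.52%. The filter can be met by the 3 libraries of 1 hybrid alone, and LPC listed more IDs at 1 FPKM or more. It can therefore favour IDs that are high in LPC, and its part in these called shares was not tested. The 3401 brain-enriched IDs held 1.45% to 1.68% in LPC and 1.11% to 1.51% in LCP (exact permutation p = 0.2, adjusted 0.267). Of the 1511 that passed the filter, 42 were called higher and 3 lower as deposited, and 10 higher and 12 lower after scaling, that is 2.98% against 4.06% of all IDs and 1.46% against 2.52%, with medians of 0.37 and 0.05. The part of these small shares in the calls of other IDs was not tested.

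Transcripts spread evenly over the tissues took about the same share in both hybrids. The 95 broad IDs, with a mean FPKM of at least 5 in every parental tissue and a highest tissue mean of at most 2 times the lowest, held 1.02% in LPC and 1.02% in LCP (SD 0.0803 and 0.111, exact permutation p = 1). As deposited 3 of them were called higher and 0 lower in LPC, and after scaling 0 higher and 4 lower, that is 3.16% against 4.06% of all IDs and 4.21% against 2.52%, with medians of 0.05 and -0.38. Their median was below that of all IDs under each of 5 scalings, by 0.18 to 0.39. Of the 9825 IDs tested, 5059 had a mean below 5 FPKM, and the median differed with abundance, as given below. No comparison of the broad IDs with other IDs of like abundance was made.

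**Figure D4:**
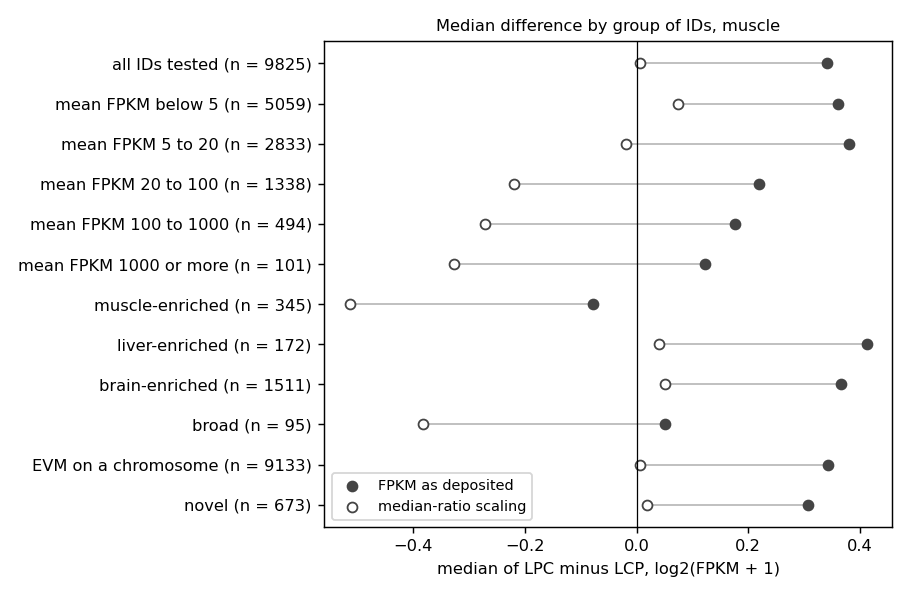
Median difference of LPC minus LCP in muscle (log2(FPKM + 1) scale) for groups of IDs, as deposited (filled) and after median-ratio scaling (open). Scaling moves every group to the left, from 0.34 to 0.01 for all IDs, and muscle-enriched IDs lie lowest on both scales, at -0.08 and -0.51.

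The median difference was not the same for rare and abundant IDs. After scaling it was 0.07 below 5 FPKM (5059 IDs), -0.02 between 5 and 20, -0.22 between 20 and 100, -0.27 between 100 and 1000 and -0.33 at 1000 or more (101 IDs). As deposited the medians of these classes were 0.36, 0.38, 0.22, 0.18 and 0.12. Of all IDs tested, 2.52% were called after scaling. Calls after scaling were 76 higher and 29 lower in LPC in the lowest class, or 2.08% of it, and 37 and 46 between 5 and 20, or 2.93%. They were 10 higher and 38 lower of the 1338 IDs between 20 and 100, or 3.59%, and 4 and 8 between 100 and 1000, or 2.43%. The filter can favour IDs high in LPC most where values are near 1 FPKM, and its part in the lowest class was not tested. The split in the lowest class was 222 higher and 9 lower as deposited, 44 and 38 with quantile normalization, where its median was -0.02, and 38 and 33 with a shift to a common median. At 1000 FPKM or more no ID was called on either scale, against 4.06% of all IDs as deposited and 2.52% after scaling. Among 101 IDs such shares amount to few calls. Of these 101 IDs, 51 are muscle-enriched. Under quantile normalization, which gives all libraries the same distribution, the median of the 101 was 0.02.

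IDs named BGI_novel differed between the hybrids more often than IDs that begin with evm and carry a chromosome number. After scaling, 37 of 673 BGI_novel IDs were called higher and 16 lower in LPC, or 7.88%, against 90 higher and 105 lower of 9133 evm IDs, or 2.14%. At least a 2-fold difference after scaling was found for 26.2% of BGI_novel and 5.35% of evm IDs. The called share was also larger among BGI_novel IDs between 5 and 20 FPKM (10.8% against 2.53%) and between 20 and 100 FPKM (8.42% against 3.23%). BGI_novel IDs varied more within a hybrid too, with a median standard deviation of 0.29 in LPC and 0.50 in LCP, against 0.18 in LPC and 0.34 in LCP for evm IDs. Their summed share was 16.7% ± 0.881 for LPC and 15.2% ± 2.26 for LCP (± SD over 3 libraries, exact permutation p = 0.4). Over the 24 chromosome numbers, 2 to 18 evm IDs were called after scaling per chromosome, or 0.466% to 4.15% of those tested on it, and the chromosome medians lay between -0.04 and 0.05. Whether these shares differ between kinds of ID beyond chance was not tested.

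The parental species, whose libraries the hybrid comparison does not use, gave a reference for direction. After median-ratio scaling, 623 of the 9825 IDs were called higher in LC than in LP (6.34%) and 604 lower (6.15%). Among the 623 that were higher in LC, 7 were called higher and 11 lower in LPC than in LCP, or 2.89%. Their median was -0.22, and LPC was above LCP for 33.5% of them. Among the 604 that were lower in LC, 9 were called higher and 4 lower in LPC, or 2.15%. Their median was 0.11, and LPC was above LCP for 58.4%. Both called shares lay near the 2.52% of all IDs tested. Over IDs not called between the species LPC was above LCP for 51.3%. IDs called between the species were 31 of the 248 scaled calls between the hybrids, or 12.5%, the same share as among all IDs tested (1227, or 12.5%). Across the 9825 IDs the LC minus LP and LPC minus LCP differences had a Spearman correlation of -0.161, given as a description, since the IDs of a library share its depth and composition. The dependence of these medians, shares and this correlation on single libraries was not tested. The place between the species, given below, had an LPC minus LCP difference of -0.150, and of 0.045 without LCP replicate 2.

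The called IDs were also placed against the parental means. Over all 9825 IDs, LPC was above both means for 32.9%, between them for 31.8% and below both for 35.3%, and LCP for 33.9%, 32.2% and 33.9%. Of the 127 IDs called higher in LPC after scaling, LPC was above both parental means for 79, between them for 25 and below both for 23, while LCP was below both for 81, between for 35 and above both for 11. Of the 121 called lower in LPC, LPC was below both parental means for 71, between for 43 and above both for 7, while LCP was above both for 95, between for 21 and below both for 5. IDs chosen for a difference between the hybrids tend by that choice to have high or low hybrid means, and departures from the parents were not tested.

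The place of a hybrid library between the species was summarised as a median over 1229 IDs that differed between LC and LP (limma adjusted p under 0.05), with all 12 muscle libraries scaled together, where -1 is the LP mean and 1 the LC mean. LPC libraries lay at -0.62, -0.63 and -0.62, and LCP libraries at -0.73, -0.09 and -0.61. All 6 were on the LP side of the middle, and LCP replicate 2 stood apart close to it. As deposited, over 4586 IDs, LPC libraries lay at -1.06, -1.49 and -1.39, beyond the LP mean, and LCP libraries at -0.65, -0.19 and -1.12, so the places depend on the scale. The means, -0.63 ± 0.01 for LPC and -0.48 ± 0.34 for LCP (± SD over 3 libraries), did not differ beyond the spread (exact permutation p = 0.7), and without LCP replicate 2 the difference of LPC minus LCP was 0.045 in place of -0.150. As deposited the difference was -0.66. Transcripts found in the muscle of one species only, at 5 FPKM or more in its 3 libraries and 0 in the 3 of the other, took overlapping shares in LPC and LCP. The 10 IDs of LP only held 0.599% to 1.41% of FPKM in LPC and 0.680% to 1.17% in LCP (exact permutation p = 0.7), and the 8 IDs of LC only held 0.573% to 1.58% in LPC and 0.154% to 1.66% in LCP (exact permutation p = 0.6). As single IDs, 0 of the 10 passed the limma test in muscle on either scale, and 1 of the 7 LC-only IDs that passed the filter was called lower in LPC. Of all IDs tested, 4.06% were called as deposited and 2.52% after scaling. The 10 and the 7 IDs are too few to compare with these shares.

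**Figure D5:**
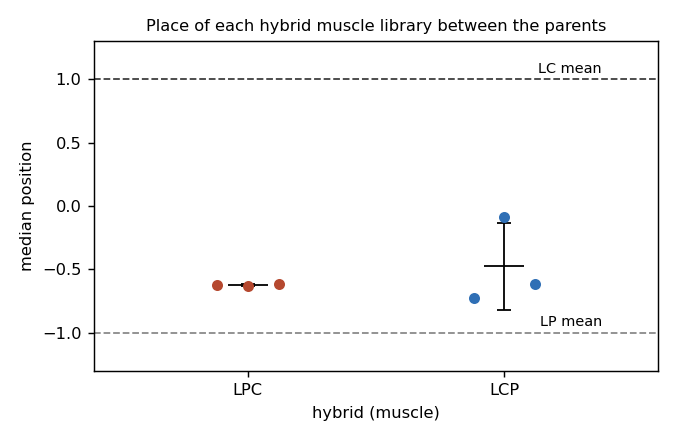
Median position of each hybrid muscle library between the parental means (-1 is the LP mean, 1 the LC mean, dashed lines) over 1229 IDs. Points are libraries, and bars give the mean and SD. LPC libraries lie together at -0.63 to -0.62, and LCP libraries spread over -0.73 to -0.09.

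The same comparison gave fewer adjusted calls in liver and brain. As deposited, liver had 37 IDs called higher and 8 lower in LPC. The median difference there was 0.36, against 0.34 in muscle and 0.08 in brain, where 1 ID was called higher. At an unadjusted limma p under 0.05 there were 2603 of 10529 IDs in liver and 2915 of 9825 in muscle as deposited. With median-ratio scaling these were 971 in liver and 2233 in muscle. After scaling, 25 of 10529 IDs were called higher in LPC liver (0.237%) and 18 lower (0.171%). In brain 1 of 16767 was called higher (0.00596%) and 0 lower (0%), with 492 at an unadjusted limma p under 0.05. Of the 127 IDs higher in LPC muscle, 74 passed the filter in liver, where 49 were above 0 and 6 were called higher. Of the 121 lower in LPC muscle, 98 passed it in liver, where 62 were below 0 and 3 were called lower. In brain, 70 of 95 were above 0, with 1 called, and 67 of 109 were below 0, with none called. No muscle call was opposite in either tissue, but few could have been. Among IDs that passed the filter in muscle as well, liver had 9 called higher and 12 lower, and brain 1 higher and 0 lower. Over all IDs measured in both tissues, 52.4% of 7773 were above 0 in liver and 44.4% of 9107 in brain.

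A test of the difference between tissues itself found few IDs. The LPC minus LCP difference in muscle was above that in liver for 23 IDs (0.296% of 7773) and below it for 37 (0.476%) after scaling. It was above that in brain for 1 ID (0.0110% of 9107) and below it for 15 (0.165%). None of these 16 was called when libraries with the same number were paired across tissues (limma, 955 at an unadjusted p under 0.05). As deposited the counts were 8 above and 12 below liver, and 1 above and 1 below brain. Of the muscle calls, 34 of the 172 measured in liver differed from liver, against 60 of all 7773 IDs. In brain, 15 of the 204 measured there differed, against 16 of all 9107. These IDs were chosen for their muscle difference, which the test uses again, so the choice itself raises both counts. For the remaining muscle calls a difference between tissues was not shown, which does not make their effects equal.

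BGI_novel_G001563 was the 1 ID called in the same direction in all 3 tissues. It had 23.0, 17.4 and 22.6 FPKM in LPC muscle and was listed at 0 in all LCP muscle libraries (log2 difference 4.45 ± 0.20, limma adjusted p = 5.52e-05). In liver it had 15.9, 18.5 and 23.5 FPKM in LPC, against 0.06, 0 and 0.25 FPKM in LCP (4.19 ± 0.20, adjusted p = 7.18e-04). In brain it had 112, 159 and 114 FPKM in LPC, against 0.81, 0.40 and 0.78 FPKM in LCP (6.27 ± 0.25, adjusted p = 0.00118). No library of LPC overlapped one of LCP in any tissue. LC libraries of muscle were at 0, while LC had 0.31, 0.96 and 0.14 FPKM in liver and 2.41, 2.44 and 0.39 FPKM in brain. LP libraries varied by their number in the same way in each tissue, with 15.8, 5.57 and 0.39 FPKM in muscle, 30.5, 7.00 and 0 FPKM in liver and 97.0, 59.0 and 0 FPKM in brain.

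As deposited, the median of all differences was above 0 in muscle (0.34) and in liver (0.36), which favours higher over lower calls. Of the 7773 IDs measured in both tissues, 8 were called higher in LPC in both as deposited, and 1 lower. BGI_novel_G002127 is the lower one. Among the higher ones, BGI_novel_G001652 had 251, 424 and 418 FPKM in LPC muscle and 3.13, 2.32 and 4.12 FPKM in LCP muscle (log2 difference 6.43 ± 0.30, limma adjusted p = 5.52e-05). It was higher in LPC liver as well, with 16.6, 39.3 and 19.4 FPKM against 0.99, 1.41 and 1.78 FPKM in LCP liver (3.36 ± 0.34, adjusted p = 0.0147). In brain the LPC libraries had 68.3, 233 and 77.2 FPKM and the LCP libraries 2.46, 2.84 and 2.44 FPKM, which did not overlap but missed the threshold (adjusted p = 0.0738). In parental muscle it was uneven, at 26.6, 2.76 and 31.8 FPKM in LP and 0, 40.3 and 11.2 FPKM in LC, and every LPC library was above all of them.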

How the data were processed

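FPKM values were computed and deposited by the authors, in 1 table with a column for each of the 36 libraries and every column mapped by name. Per the labels' protocols, RNA was extracted with TRIzol and polyadenylated RNA was sequenced. Fastp is the only tool named, per the submitters' processing notes. Which aligner, quantifier, genome build and annotation were used is not given in the sources used here. Fragment totals are unknown, and FPKM steps did not return whole fragments (the fullest class, 0.05 wide, of the ratios of low values held 7.32% to 14.8%), so no count test was run. The 6 libraries compared were fitted on log2(FPKM + 1) by limma 3.58.1 (R 4.3.3, eBayes with a trend), and 2-sided p-values were adjusted over all IDs tested by the Benjamini-Hochberg method. The test was checked on simulated data that drew each ID independently, with the same spread in both hybrids. The real spread was larger in LCP than in LPC, which that check does not cover. Values per library were compared by exact permutation. The named IDs were the 2 highest and 2 lowest differences among IDs called under both scalings with a mean of at least 5 FPKM in one hybrid and no overlap (103 IDs), the 3 most abundant IDs, and, since fewer than 4 were called the same way in all 3 tissues, the IDs with the most extreme smallest difference among the 9 called the same way in muscle and liver. The 2 lowest of that last group include 1 ID, as only 1 was lower. Alternatives were 4 other scalings, pseudocounts of 0.1 and 5, other filters, all 12 muscle libraries, the replicate number as a block, and leaving out each library. Combining the scaling with a pseudocount of 5 or with 12 libraries was added after seeing the data. The hybrids, ID lists and tests were chosen with earlier results of these data known. Sequences of the IDs were not used here.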

Additional observations from a re-analysis of the deposited data

Results flagged for a closer look

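For 2 IDs the LPC minus LCP difference was tested as unequal between tissues by a limma interaction term on the deposited scale. Both IDs were named for their LPC minus LCP differences, which this term uses again. For BGI_novel_G002127 the muscle difference minus the liver difference was -3.19 on the log2 scale (adjusted p = 4.07e-05), and the muscle difference minus the brain difference was -3.58 (adjusted p = 0.0266, and 0.168 when libraries with the same number were paired across tissues). LPC was listed at 0 in all 3 tissues for this ID, so both values follow the levels in LCP, which were 146, 134 and 127 FPKM in muscle, 13.4, 13.0 and 15.5 FPKM in liver and 4.91, 18.6 and 11.8 FPKM in brain, and their size depends on the pseudocount. For BGI_novel_G001652 the muscle difference minus the liver difference was 3.07 (adjusted p = 0.0130), with LPC higher than LCP in both tissues.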

How the results depend on the processing

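No ID called between LPC and LCP in muscle was called in the opposite direction under any alternative run. Against 399 calls as deposited there were 248 with median-ratio scaling, 184 with quantile normalization, 190 with a shift to a common median, 252 with sums taken without the 100 most abundant IDs, 225 with a pseudocount of 0.1, 549 with a pseudocount of 5 (507 higher and 42 lower), 120 with a filter of above 0 in 1 library, 147 with a filter of at least 5 in 3 libraries and 606 with all 12 muscle libraries fitted. The split of higher and lower calls was 366 and 33 as deposited, 98 and 86 with quantile normalization, 84 and 106 with a common median and 198 and 54 without the top 100. With sums taken without the top 100, the median of all differences was 0.18 on the log2 scale, against 0.34 as deposited. Leaving out 1 library gave 61 to 1397 calls as deposited and 26 to 309 after scaling, where the count was 77 without LCP replicate 3, 82 without LPC replicate 1, 30 without LPC replicate 2 and 26 without LPC replicate 3. Scaling with all 12 libraries gave 149. Single libraries left out gave 10 to 34 calls in liver (45 with all), 1 to 7 in brain (1), 2612 to 4607 for LC against LP (4586), 6 to 40 for muscle minus liver (20) and 0 to 11 for muscle minus brain (2 by limma, with 1007 at an unadjusted p under 0.05). Median-ratio scaling gave 1227, 60 and 16 for the last 3. The causes of these shifts were not tested.

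The replicate number is no stated pairing, and same-numbered LPC and LCP muscle libraries deviated together with a correlation of -0.19 to 0.15. With the replicate block, calls in muscle were 157 as deposited and 38 after scaling, 14 in liver and 0 in brain (666 at an unadjusted p under 0.05, limma), and with libraries of the same number paired across tissues 51 for muscle minus liver and 0 for muscle minus brain (1083 at an unadjusted p under 0.05, limma), and 51 and 0 after scaling. The brain call of BGI_novel_G001563 was thus lost with the block. Same-numbered muscle libraries correlated at 0.003 to 0.263 with liver and 0.027 to 0.251 with brain. For unlike numbers of a cross the values were -0.263 to 0.112 with liver and -0.226 to 0.089 with brain. Deviations within a group of 3 libraries balance out, so higher values for like numbers come with lower ones for unlike numbers. The ranges for like and unlike numbers are therefore not independent. Whether same-numbered libraries came from the same fish is not stated in the labels and was not tested.

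Differences in share or position that changed sign were within the spread of libraries. With 1 library left out they ran from -0.275 to 0.045 for position, -0.0619 to 0.0468 percentage points for broad IDs, -0.0509 to 0.355 for LP-only IDs (-0.0466 without the 100 most abundant IDs) and -0.0830 to 0.704 for LC-only IDs. evm.model.Chr21.1163, never called, changed sign with quantile normalization (0.21), without LCP replicate 1 (0.049) and without LCP replicate 3 (0.17), and ran from -0.47 to 0.17 with 1 library left out. BGI_novel_G002121 missed the threshold with scaling and all 12 libraries (adjusted p = 0.0694), and the other named IDs called between LPC and LCP in muscle stayed called under all 18 alternatives of that fit. The unknown depth limits statements on values at 0.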

Other observations

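BGI_novel IDs called between the hybrids were unevenly spread over their running numbers, a pattern seen after the values were known and not tested. The 120 tested IDs numbered 1501 to 1700 held 14 called higher in LPC muscle after scaling and 2 called lower, while the 553 other tested BGI_novel IDs held 23 called higher and 14 lower. All 16 were also called on the deposited scale. What the running number stands for is not stated in the sources used here.

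On the deposited scale the species contrast in muscle ran mostly one way. Of the 9825 IDs, 264 were called higher in LC and 4322 lower in LC relative to LP, and the median difference was -0.67 on the log2 scale, against 623 higher and 604 lower after scaling.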
